A study of Mus musculus with 4 samples.

Results

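The genes of programmed cell death, of the TNF ligand and receptor families and of NF-kB signalling were examined in lymphatic endothelial cells of the mouse meninges after delivery of VEGF-C. They were taken by name from the deposited expression table: the BCL2 and BNIP families, caspases, inhibitors of apoptosis, TNF-family ligands and receptors, TRAF and RIPK adaptors, Toll-like receptors, IRAK and TAB genes, the IKK kinases, and the NF-kB and IkB genes with the TNF-induced proteins. The naming rule gave 72 genes of the 9114 rows. The cells came from male C57BL/6J mice aged 20 to 24 months, 4 weeks after 5 uL of virus had been injected into the cisterna magna. One group had received AAV1-CMV-mVEGF-C, which carries mouse VEGF-C, and the control group AAV1-CMV-eGFP, which carries a fluorescent protein. AAV1 is an adeno-associated virus and CMV a promoter active in most cell types, so the promoter did not restrict the transgene to lymphatic endothelium, and the controls had been injected with virus too. DAPI-, CD45-, CD31+ and PDPN+ single cells were sorted. Each library pooled the meninges of 10 mice, and each group had 2 libraries, so the spread between libraries is the spread between pools. No p-value below covers the spread between single mice. In the main fit a change is set against a spread between pools shared by genes of similar level, not the gene's own.

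Cell death by the mitochondrial route is set by the balance within the BCL2 family. Anti-apoptotic members such as BCL2 and MCL1 hold the pore-forming members in check, BH3-only members such as BAD and BIM release them, and the pore lets cytochrome c assemble APAF1 and caspase-9. The extrinsic route starts at death receptors of the TNF receptor family, which recruit caspase-8 through adaptor proteins. The same receptors, and the Toll-like and interleukin-1 receptors, also signal through TRAF proteins and the IKK complex to NF-kB, which in endothelial cells drives adhesion molecules and its own inhibitors, among them IkB-alpha (Nfkbia) and A20 (Tnfaip3). VEGF-C acts on lymphatic endothelium through the receptor VEGFR3, encoded by Flt4, and is known as a growth and survival signal for it.

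The 4 libraries held 25610683 to 28632461 recovered reads on the genes of the table. The 8 lymphatic endothelial markers, Prox1, Flt4, Lyve1 and Pdpn among them, all had a row, none was called different, and their summed normalised count lay between 473403 and 601045 in the 4 libraries. Of 8 leukocyte markers 4 had a row, with Cd3e at 0 in mVEGF-C 1, and their sums were 4935 and 2523 with eGFP and 3348 and 7408 with mVEGF-C. Of 8 macrophage markers 2 had a row, Mrc1 and Cx3cr1, with sums between 23725 and 33267. The summed fibroblast markers (4 of 8) lay between 24565 and 61884 and the blood endothelial markers (4 of 6) between 11388 and 25533. The 7 pan-endothelial markers all had a row, and their sums were higher in both mVEGF-C libraries, at 103414 and 102197 against 80907 and 98543. The sums of the mural markers (3 of 8) were lower in both mVEGF-C libraries, at 12222 and 10029 against 17844 and 13189. The sums of the leukocyte, macrophage, fibroblast and blood endothelial markers overlapped between the groups, and no marker of any list was called. Their part in the results below was not tested. The rows of the table seem to have been limited by agreement between the libraries of a group, as read from the values. Such a filter is not stated in the sources used here and was not tested. If it was applied, replicate spread is understated and p-values are too small by an unknown amount.

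All 72 genes had a mean of at least 10 normalised counts and were tested. With limma on log2(normalised count + 1), adjusted over the 9063 genes tested, 1 of the 72 genes was called at an adjusted p under 0.05, which is 1.39%, and the call was higher after mVEGF-C. Over all genes tested, 2.14% were called, 0.828% higher and 1.31% lower. The share among the 72 genes was thus near the background. At an unadjusted p under 0.05 there were 7 of the 72 genes (9.72%), 5 higher and 2 lower, against 11.8% of all genes tested. The median log2 fold change of the 72 genes was 0.07 and that of all genes tested -0.02; 38 genes lay above 0 and 34 below. Without mVEGF-C 2 the median of the 72 genes was 0.50. Of the 72 genes, 35 kept their sign in all 4 fits with 1 library left out. The median size of the change, regardless of sign, was 0.84 for the 72 genes and 0.79 for all genes.

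Counting the libraries themselves, without a test, 18 of the 72 genes (25.0%) had both mVEGF-C values higher than both eGFP values, and 8 (11.1%) had both lower. Over all genes tested these shares were 19.4% and 19.8%. Taking either direction, 26 of the 72 genes had separate groups, 36.1%, against 39.2% of all genes. For the other 46 genes the groups overlapped. The replicate spread was large: 49 of the 72 genes differed more between the 2 libraries of one group than between the group means on the log2 scale. The 2 mVEGF-C libraries differed over 4-fold for 14 of the genes and the 2 eGFP libraries for 13. These counts were not made over all genes tested, so they do not set the 72 genes apart. A wide spread was not particular to these genes. Their median log2 difference between replicates was 0.92 with eGFP and 1.28 with mVEGF-C, against 0.94 and 1.07 over all genes tested.

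**Figure D1:**
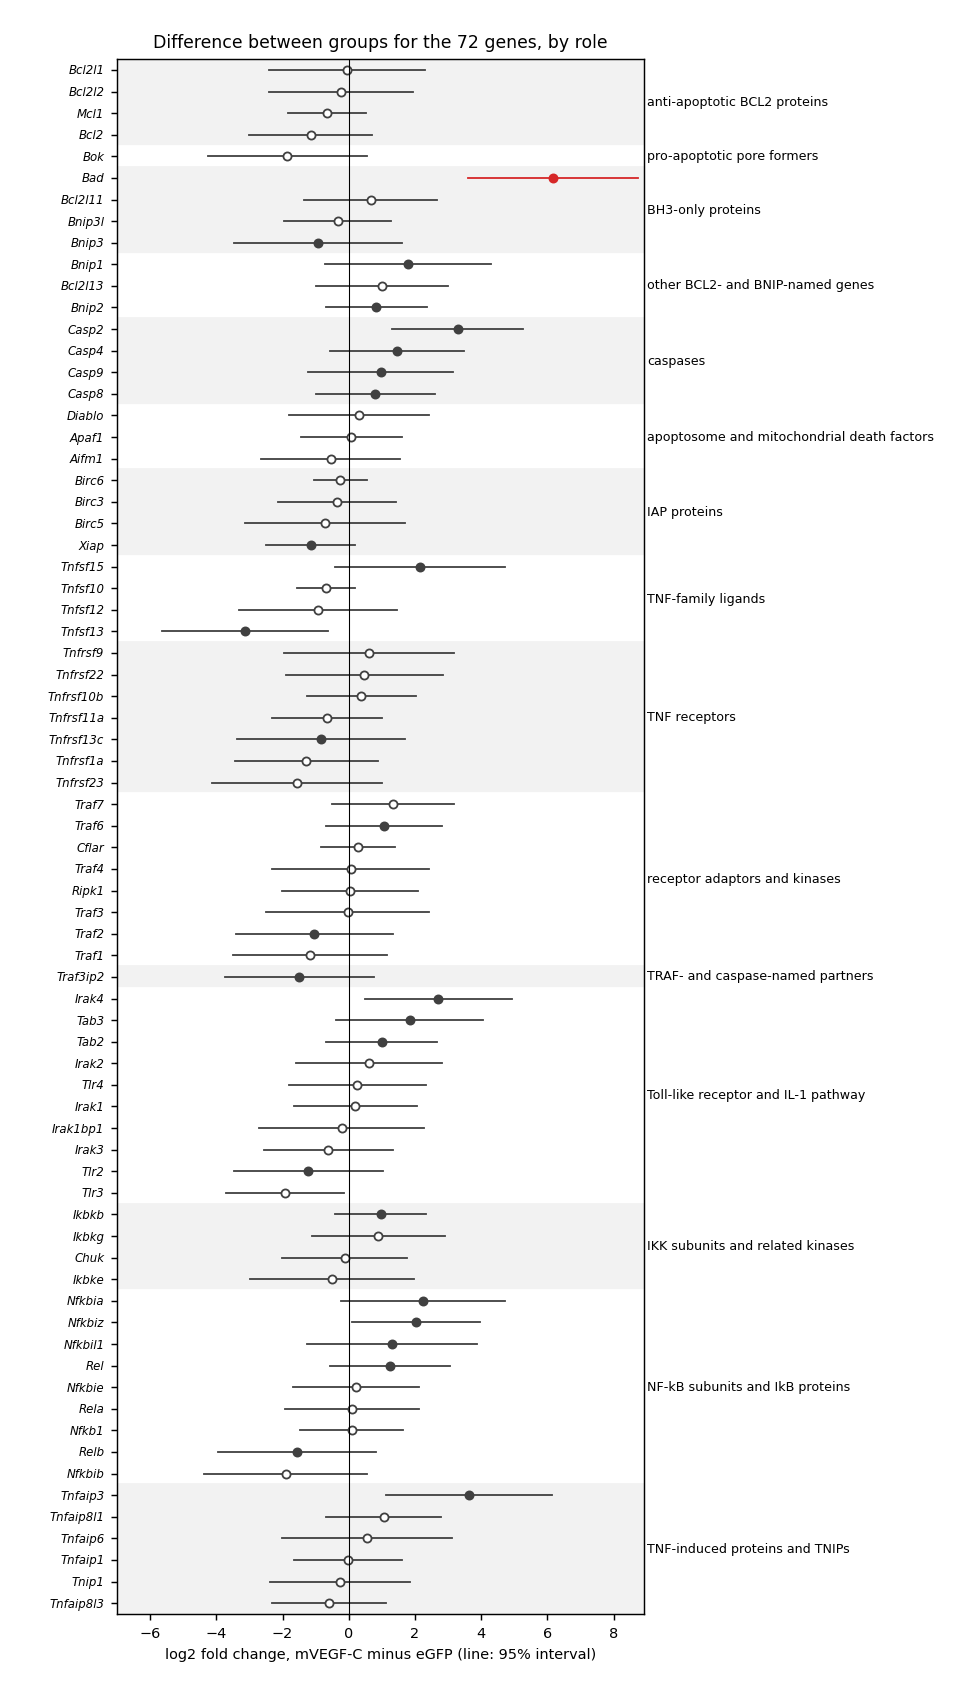
Log2 fold change of each of the 72 genes, mVEGF-C minus eGFP, from the limma fit (x axis), grouped by role (y axis); lines are 95% intervals, filled points are genes whose 2 groups of 2 libraries did not overlap and open points genes whose groups did. Bad (red), at 6.16, is the 1 gene called, and all 4 caspases lie to the right of 0 with filled points.

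The gene called was Bad, a BH3-only protein that promotes cell death by binding the anti-apoptotic BCL2 proteins and is held inactive by survival kinases (chr19:6941861-6951899, plus strand, mm10 build, as GENCODE annotates it). Its normalised count was 8.95 in eGFP 1, 2.14 in eGFP 2, 214 in mVEGF-C 1 and 746 in mVEGF-C 2. Bad was near 0 in both eGFP libraries and far higher in both mVEGF-C libraries, with no overlap. The means were 5.55 ± 4.82 (SD, n = 2) with eGFP and 480 ± 377 (SD, n = 2) with mVEGF-C, and Bad rose by 6.16 ± 1.31 (SE) on the log2 scale (95% interval 3.59 to 8.73, limma adjusted p = 0.000749). The recovered reads behind these values were 10 and 2 with eGFP and 200 and 803 with mVEGF-C. The ratio of the summed normalised counts was 86.5, with an exact counting interval of 49.3 to 168. The interval covers counting error only, not the spread between pools or errors in assigning reads to genes. The call was also made by edgeR on the recovered reads (adjusted p = 0.00726), which called 1.61% of all genes tested, and by DESeq2 (adjusted p = 4.81e-07), which called 7.09%. It was lost without eGFP 2, where the log2 fold change was 5.33 and the limma adjusted p 0.41, a fit in which no gene of the table was called lower and 5 were called higher. The exons of Bad overlap those of Gpr137 on the opposite strand. Whether the counting used strand is not given in the sources used here, so reads from the stretch shared by the pair cannot be told apart. The length of that stretch was not measured. The same limit holds for 25 of the 72 genes whose exons overlap another gene, 22 of them on the opposite strand, Bcl2, Bnip2, Bnip3, Casp9, Ripk1, Traf7, Traf3ip2, Tlr3, Irak3, Nfkbib and Nfkbil1 among them. In sorted bulk cells, moreover, fewer cells with a transcript and less of it per cell cannot be told apart.

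The other 3 BH3-only genes were not called. Bcl2l11 encodes BIM, a strong activator of the mitochondrial route, and had a log2 fold change of 0.66 with overlapping groups. Bnip3 and Bnip3l encode mitochondrial proteins that act in mitophagy and are induced by low oxygen. Bnip3l, the most abundant gene of the group, had normalised counts of 2565 and 4635 with eGFP and 3920 and 1910.2 with mVEGF-C, in the order of the replicate numbers, which is kept below. These values overlapped, and the log2 fold change was -0.33 ± 0.83 (SE). Bnip3 was lower in both mVEGF-C libraries, at 67.3 and 91.98 against 171 and 132 (log2 fold change -0.93, limma adjusted p = 0.891).

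The 4 anti-apoptotic genes, Bcl2, Bcl2l1, Bcl2l2 and Mcl1, all had log2 fold changes below 0, from -1.15 to -0.04, and in all 4 the groups overlapped. Bcl2, which protects mitochondria, had 3716 and 2063 normalised counts with eGFP and 2769 and 561 with mVEGF-C. Only mVEGF-C 2 lay outside the eGFP values, and the log2 fold change was -1.15 ± 0.95 (SE, limma adjusted p = 0.737). Mcl1, a short-lived protein many cells need to survive, had 8704 and 11060.4 counts with eGFP and 4343 and 8948 with mVEGF-C (log2 fold change -0.65 ± 0.60 SE). One mVEGF-C library was lower than both controls and the other lay between them. Bcl2l1, which encodes BCL-XL, had 498 and 293 counts with eGFP and 229 and 601 with mVEGF-C. The mVEGF-C values enclosed the eGFP values, the log2 fold change was -0.04 ± 1.20 (SE), and it was above 0 with quantile normalization, edgeR and DESeq2.

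Bok was the 1 pore-forming gene with a row. It had 264 and 1169 normalised counts with eGFP and 84.4 and 277 with mVEGF-C. The groups overlapped narrowly, between 264 and 277, and the log2 fold change was -1.86 ± 1.23 (SE, limma adjusted p = 0.624). Bax and Bak1, the main pore formers, are not analysed here. Among other genes named after BCL2 or BNIP, Bnip2 had 2569.9 and 3189 counts with eGFP and 6794 and 3842 with mVEGF-C. Both mVEGF-C libraries were higher (log2 fold change 0.84 ± 0.77 SE, limma adjusted p = 0.787), as they were for Bnip1 (1.78), while Bcl2l13 (0.99) overlapped.

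All 4 caspase genes with a row had higher counts in both mVEGF-C libraries than in both eGFP libraries, an order held by 19.4% of all genes tested, and none was called. Casp2, a caspase activated in the nucleus and cytoplasm by stress and errors of cell division, had 732 and 276 normalised counts with eGFP and 5927 and 3249 with mVEGF-C. The groups were far apart relative to the spread within them. The log2 fold change was 3.28 ± 1.01 (SE, 95% interval 1.31 to 5.25) and the limma adjusted p 0.0506, just outside the threshold. It passed the threshold with a pseudocount of 0.5 (limma adjusted p = 0.0493), with a minimum mean of 50 (0.0482) and with DESeq2 (0.00702). Casp2 did not pass in the other alternatives that kept all libraries. Among these were the fit without the mean-variance trend (limma adjusted p = 0.17) and edgeR (adjusted p = 0.0704). With 1 library left out its log2 fold change lay between 2.58 and 3.99.

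Casp8, the initiator of the death-receptor route, had 1718 and 1487 counts with eGFP and 3296 and 2357 with mVEGF-C (log2 fold change 0.80 ± 0.92 SE, limma adjusted p = 0.857). Casp9, the initiator that binds APAF1, had 559 and 506 counts with eGFP and 858 and 1263 with mVEGF-C (0.97 ± 1.12 SE, limma adjusted p = 0.859). Casp4, which in mice encodes the inflammatory caspase-11 that senses bacterial lipopolysaccharide, had 741 and 754 counts with eGFP and 1894 and 2232 with mVEGF-C (1.46 ± 1.03 SE, limma adjusted p = 0.66). In these 3 genes the order of the groups was clear but the differences were small for what the fit could call. Summed over the 4 caspases the normalised counts were 3751 and 3022 with eGFP and 11974 and 9101 with mVEGF-C, and Casp2 made up most of the difference between the sums.

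**Figure D2:**
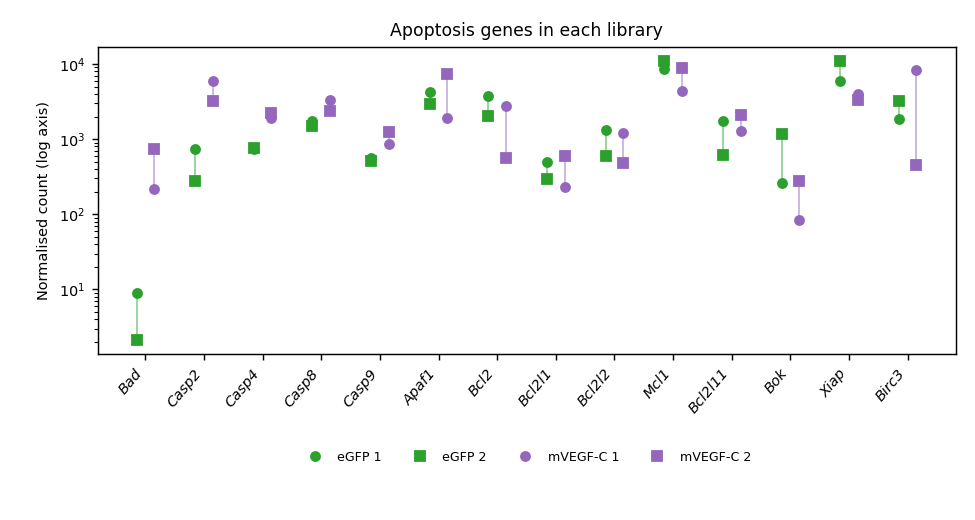
Normalised count (y axis, log scale) of 14 apoptosis genes in each of the 4 libraries; circles are replicate 1, squares replicate 2, green is eGFP, purple is mVEGF-C, and a line joins the 2 libraries of a group. Bad and the 4 caspases show the purple points above the green ones, whereas Apaf1, Bcl2, Bcl2l1 and Birc3 show overlapping groups.

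Of the 3 genes of the apoptosome and mitochondrial death factors, none had separate groups. Apaf1, the scaffold of the apoptosome, had 4228 and 2980.2 counts with eGFP and 1922 and 7328 with mVEGF-C. The mVEGF-C libraries lay on either side of the controls, and the log2 fold change of 0.08 ± 0.79 (SE) was below 0 when the libraries were rescaled to the same total. Diablo, which blocks the inhibitors of apoptosis, was at 0.30 and Aifm1 at -0.55.

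The inhibitors of apoptosis bind caspases or their activators. All 4 with a row had log2 fold changes below 0 in the main fit, none called, but the sign of Birc3 depended on the method. Xiap, a direct caspase inhibitor, had 5944 and 10952 normalised counts with eGFP and 3955 and 3334 with mVEGF-C. Both mVEGF-C libraries were lower, with a log2 fold change of -1.15 ± 0.69 (SE, 95% interval -2.50 to 0.20, limma adjusted p = 0.557). Birc6, a giant ubiquitin ligase, was the most abundant of the 72 genes by count, with 17654 and 26004 with eGFP and 15923 and 20278 with mVEGF-C. These libraries overlapped, and at this level a change of 1.33 on the log2 scale would have sufficed for a call, while the one seen was -0.25 ± 0.40 (SE). Birc3, a ubiquitin ligase of TNF receptor complexes and an NF-kB target, had the widest replicate gap of the 72 genes. It stood at 8323 in mVEGF-C 1 and 449 in mVEGF-C 2, on either side of the eGFP values of 1866 and 3234. The log2 fold change of Birc3 was -0.345 ± 0.91 (SE) in the main fit, but 0.79 with edgeR and 0.78 with DESeq2. With 1 library left out it ranged from -2.45 to 1.76. Birc5, also known as survivin and needed for cell division, had a log2 fold change of -0.70.

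Of the 4 TNF-family ligand genes with a row, only Tnfsf15 had a log2 fold change above 0. Tnfsf10 encodes TRAIL, which triggers death receptors, and per kilobase of exon it had the highest mean level of the 72 genes, 3372 normalised counts per kilobase, ahead of Mcl1 (2418) and Bnip2 (1186). Its counts were 10720.2 and 35302 with eGFP and 15816 and 9190.3 with mVEGF-C. One control library stood above the 3 others, and the log2 fold change was -0.69 ± 0.45 (SE, limma adjusted p = 0.622). Tnfsf13 encodes APRIL, a survival factor of plasma cells, and had 462 and 338 counts with eGFP and 26.7 and 71.5 with mVEGF-C. Both mVEGF-C libraries were lower, with a log2 fold change of -3.14 ± 1.28 (SE), not called by limma (adjusted p = 0.222) but called by DESeq2 (adjusted p = 0.0154). Its exons overlap those of the Tnfsf12-Tnfsf13 read-through gene Tnfsfm13 on the same strand and an antisense gene, so its level is uncertain. Tnfsf12 (TWEAK) was at -0.93 and Tnfsf15, which restrains growth of blood vessel endothelium, at 2.14, from 28.6 and 21.4 counts with eGFP to 219 and 57.6 with mVEGF-C (limma adjusted p = 0.568).

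Among the 7 TNF receptor genes, 3 had log2 fold changes above 0 and 4 below, from -1.57 to 0.62, and none was called. Tnfrsf1a, the receptor through which TNF acts on most cells, had 1643 and 965 normalised counts with eGFP and 144 and 1848 with mVEGF-C. The 2 mVEGF-C libraries enclosed the controls, and the log2 fold change was -1.28 ± 1.11 (SE, limma adjusted p = 0.759). Tnfrsf10b, the mouse death receptor for TRAIL, had 2119 and 3148 counts with eGFP and 5760.2 and 1958 with mVEGF-C (0.38 ± 0.84 SE), again overlapping. Tnfrsf22 (0.47) and Tnfrsf23 (-1.57), which in mice bind TRAIL without a death domain, and Tnfrsf11a (RANK, -0.66) overlapped between the groups as well. Tnfrsf23 was the least abundant of the 72 genes, with 3 recovered reads in mVEGF-C 1. Tnfrsf9, a costimulatory receptor of T cells, was at 0.62. Tnfrsf13c, the BAFF receptor of B cells, was lower in both mVEGF-C libraries, at 69.4 and 95.7 against 181 and 119 (log2 fold change -0.84, limma adjusted p = 0.903). The adaptors Tradd and Fadd and the receptor gene Tnfrsf1b are not analysed here.

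Cflar, Ripk1 and the TRAF genes act just below the receptors. Cflar encodes FLIP, which blocks caspase-8, and was the most abundant of these 8 genes, with 4365 and 15056 normalised counts with eGFP and 12010 and 8084 with mVEGF-C. The mVEGF-C values lay between the 2 controls (log2 fold change 0.28 ± 0.57 SE). Ripk1, the kinase that decides between survival and death signals, had 812 and 1533 counts with eGFP and 2753 and 475 with mVEGF-C. The log2 fold change was 0.04 ± 1.05 (SE), below 0 when libraries were rescaled to the same total.

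Traf2, the ubiquitin ligase adaptor of TNF receptors, had 420.0 and 608 counts with eGFP and 287 and 209 with mVEGF-C, lower in both (-1.04 ± 1.21 SE, limma adjusted p = 0.859). Traf6, the adaptor shared by the Toll-like, interleukin-1 and RANK receptors, was the reverse, with 1665 and 1480.5 counts with eGFP and 4924 and 2181 with mVEGF-C (1.06 ± 0.90 SE, limma adjusted p = 0.752). The groups of Traf1 (-1.18), Traf3 (-0.03), Traf4 (0.06) and Traf7 (1.34) overlapped. Traf3ip2, the adaptor of the interleukin-17 receptor, had 699 and 1448 counts with eGFP and 558 and 228 with mVEGF-C. Both mVEGF-C libraries were lower, and the log2 fold change was -1.50 ± 1.15 (SE, limma adjusted p = 0.708).

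The 10 genes of the Toll-like receptor and interleukin-1 branch included 6 with log2 fold changes above 0 and 4 below, none called. Irak4, the kinase that starts signalling from MYD88, had 636 and 112 normalised counts with eGFP and 2557 and 1190.1 with mVEGF-C. Both mVEGF-C libraries were higher, and the log2 fold change was 2.70 ± 1.13 (SE, limma adjusted p = 0.244). Its exons overlap those of Twf1 on the opposite strand, which had 3275 and 625 counts with eGFP and 7215 and 1332 with mVEGF-C. Tab2, which links TRAF6 to the kinase TAK1, had 2666 and 1417 counts with eGFP and 3665 and 4071 with mVEGF-C (0.99 ± 0.85 SE, limma adjusted p = 0.759). Its paralog Tab3 was also higher in both, from 377 and 336 to 2111 and 769 (1.84 ± 1.13 SE, limma adjusted p = 0.574).

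Tlr3 senses double-stranded RNA and was the most abundant gene of this branch. It had 1795 and 9800.1 counts with eGFP and 2820.3 and 427 with mVEGF-C. The groups overlapped, with the highest value in eGFP 2 and the lowest in mVEGF-C 2. The log2 fold change was -1.93 ± 0.91 (SE, limma adjusted p = 0.349), at an unadjusted p under 0.05 although the libraries did not separate. It was -3.16 without eGFP 1, -0.71 without eGFP 2, -3.29 without mVEGF-C 1 and -0.57 without mVEGF-C 2. Irak1 had 1025 and 2832 counts with eGFP and 2980.5 and 1284 with mVEGF-C, overlapping (0.20 ± 0.95 SE). Tlr2, which senses bacterial lipoproteins, was lower in both mVEGF-C libraries (-1.22), while Tlr4, the lipopolysaccharide receptor (0.26), Irak2 (0.61), Irak3, a brake on this branch (-0.62), and Irak1bp1 (-0.21) overlapped. Myd88 is not analysed here.

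The IKK complex consists of the kinases encoded by Chuk and Ikbkb and the regulatory subunit encoded by Ikbkg. Ikbkb, the kinase of the canonical route, had 4126 and 3266 normalised counts with eGFP and 8564 and 5983 with mVEGF-C. Both mVEGF-C libraries were higher, with a log2 fold change of 0.96 ± 0.70 (SE, 95% interval -0.41 to 2.34, limma adjusted p = 0.677). Chuk, the kinase of the alternative route, had 1418 and 2227 counts with eGFP and 3737 and 714 with mVEGF-C. It overlapped, at -0.12 ± 0.96 (SE), and was above 0 with edgeR and DESeq2. Ikbkg had 717 and 1142 counts with eGFP and 2676 and 1060.1 with mVEGF-C, overlapping (0.90 ± 1.03 SE). Its exons overlap those of G6pdx on the opposite strand, which had 1090 and 368 counts with eGFP and 11.8 and 112 with mVEGF-C. Ikbke, a related kinase of interferon signalling, was at -0.50.

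Among the 9 NF-kB and IkB genes, 7 had log2 fold changes above 0 and 2 below, none called. The subunits of the canonical dimer showed the same high and low libraries within each group. Nfkb1, the precursor of p50, had 5108 and 2320 normalised counts with eGFP and 5989 and 2232 with mVEGF-C (log2 fold change 0.09 ± 0.79 SE). Rela, the p65 subunit, had 2179 and 690 counts with eGFP and 3071 and 559 with mVEGF-C (0.10 ± 1.03 SE). Both overlapped, and both were below 0 with quantile normalization. Rel, a subunit prominent in lymphocytes, was higher in both mVEGF-C libraries, from 1452 and 1220 to 2276 and 4386 (1.25 ± 0.92 SE, limma adjusted p = 0.686). Relb, the partner of p52 in the alternative route, had 290.1 and 979 counts with eGFP and 115 and 279 with mVEGF-C. Both mVEGF-C libraries were lower, the nearer one by a small margin (-1.57 ± 1.22 SE, limma adjusted p = 0.716). Nfkb2 is not analysed here.

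Tnfaip3, Nfkbia and Nfkbiz, known NF-kB targets set side by side here after their values were seen, had higher counts in both mVEGF-C libraries, and none was called by limma. Other inhibitors (Nfkbib, Nfkbie, Tnip1) and the target Birc3 had overlapping groups. Relb (-1.57) and Tlr2 (-1.22) were lower in both mVEGF-C libraries. So was the target Icam1, which was called lower and is described below. Tnfaip3, whose product A20 removes and edits ubiquitin chains to end NF-kB signalling, had 62.7 and 20.3 normalised counts with eGFP and 544 and 386 with mVEGF-C. The groups were well apart, and the log2 fold change was 3.64 ± 1.28 (SE, 95% interval 1.13 to 6.15). The limma adjusted p was 0.12, and DESeq2 called it (adjusted p = 0.00439). Nfkbia, the IkB-alpha gene, had 168 and 36.3 counts with eGFP and 238 and 588 with mVEGF-C (2.24 ± 1.27 SE, limma adjusted p = 0.512). Nfkbiz, an atypical nuclear IkB, had 1267 and 447 counts with eGFP and 5047 and 1902 with mVEGF-C (2.04 ± 0.99 SE, limma adjusted p = 0.377). In both genes the nearest libraries of the 2 groups lay closer together than the 2 eGFP libraries did. Nfkbil1, at 27.8 and 26.7 against 66.2 and 70.6, was higher in both at a low level (1.30). Nfkbib, the IkB-beta gene (-1.91), and Nfkbie, the IkB-epsilon gene (0.21), overlapped.

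The 5 other genes of the TNF-induced group overlapped between the groups. Tnfaip1, the most abundant, had 1495 and 6041 counts with eGFP and 3064 and 2891 with mVEGF-C (log2 fold change -0.01 ± 0.83 SE). The log2 fold changes were 0.54 for Tnfaip6, which binds hyaluronan, 1.05 for Tnfaip8l1, -0.60 for Tnfaip8l3 and -0.27 for Tnip1, which cooperates with A20.

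**Figure D3:**
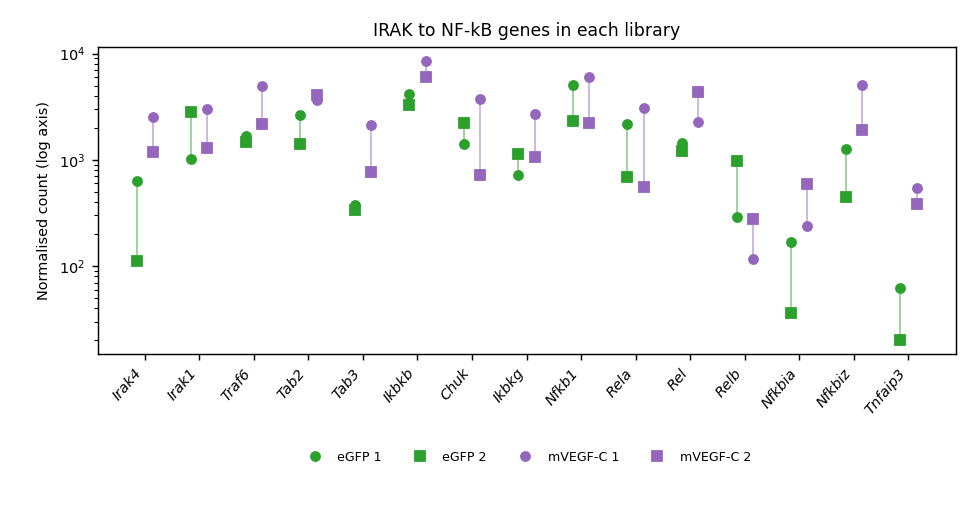
Normalised count (y axis, log scale) of 15 genes from IRAK kinases to NF-kB and its inhibitors in each of the 4 libraries; circles are replicate 1, squares replicate 2, green is eGFP, purple is mVEGF-C, and a line joins the 2 libraries of a group. Irak4, Tab3, Nfkbia, Nfkbiz and Tnfaip3 are among the genes that lie higher in both mVEGF-C libraries. Relb lies lower in both, and Nfkb1 and Rela are among the genes that overlap.

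The promoters of these genes were searched for the kappa B consensus, the motif bound by NF-kB dimers, on both strands from 250 bases before to 50 after each annotated start. RefSeq promoters of the GRCm38.p6 build were matched by symbol for 62 of the 72 genes, 80 promoters in all, and 19 of the 80 (23.8%) held the motif, against 8.46% of 32851 promoters in the table. These belonged to 17 genes, of which 9 had log2 fold changes above 0 (median 0.20); of the 45 genes without it 23 did (median 0.04). Among the 17, separate groups were seen for 5 genes that were higher (Bnip1, Casp4, Nfkbia, Rel and Tnfaip3) and 2 that were lower (Tlr2 and Xiap), a share near the 39.2% of all genes tested. The 130 bases before the start are shown for the 5 higher genes, picked by their values, 5′ to 3′ on the gene's strand, with each match in capitals; overlapping matches are joined. They show how the motif is placed in known NF-kB-responsive genes such as Tnfaip3 and Nfkbia, and a match is a match of letters, not a bound site.
Tnfaip3, chr10:19015411-19015540, strand -: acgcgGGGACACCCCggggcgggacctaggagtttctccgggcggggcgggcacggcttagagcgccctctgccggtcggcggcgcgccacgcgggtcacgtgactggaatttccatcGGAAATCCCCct
Nfkbia, chr12:55492648-55492777, strand -: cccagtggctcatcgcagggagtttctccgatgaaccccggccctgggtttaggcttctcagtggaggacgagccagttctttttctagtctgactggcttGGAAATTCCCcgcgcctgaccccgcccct
Rel, chr11:23770970-23771099, strand -: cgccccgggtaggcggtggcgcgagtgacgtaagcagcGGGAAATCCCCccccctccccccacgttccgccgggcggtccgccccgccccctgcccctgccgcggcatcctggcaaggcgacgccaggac
Casp4, chr9:5308719-5308848, strand +: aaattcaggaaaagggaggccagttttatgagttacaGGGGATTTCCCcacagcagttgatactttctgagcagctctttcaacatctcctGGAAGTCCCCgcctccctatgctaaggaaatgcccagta
Bnip1, chr17:26780949-26781078, strand +: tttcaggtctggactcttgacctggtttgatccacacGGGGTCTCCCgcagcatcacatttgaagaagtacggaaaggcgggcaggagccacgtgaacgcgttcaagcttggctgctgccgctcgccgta
Tnfaip3 and Casp4 carry 2 separate stretches each and Nfkbia, Rel and Bnip1 1 each. The last 21 bases shown for Casp4, the last 13 for Bnip1 and the last 1 for Rel lie in their exons as GENCODE annotates them.

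Other genes of the same pathways were listed by function under other symbols. Of 150 listed genes 83 were tested and 1 was called (1.20%, against 2.14% of all genes), with 6 higher and 5 lower at an unadjusted p under 0.05 (13.2%, against 11.8%). Log2 fold changes above 0 were seen for 60.2% of them and for 49.45% of all genes. Among 28 apoptosis genes tested of 46 listed, none was called by limma (3 at an unadjusted p under 0.05), 20 had log2 fold changes above 0 and the median was 0.59. Among 34 genes upstream of NF-kB tested of 49, none was called (5 at an unadjusted p under 0.05), 20 were above 0 and the median was 0.20. Only 3 of 15 further TNF receptor and ligand genes were tested, 2 of them above 0. Vdac2, a mitochondrial channel picked after its value was seen, had the highest log2 fold change of the apoptosis list, 2.79 with limma adjusted p = 0.0933.

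Of 40 NF-kB target genes 18 were tested, 8 of them above 0, with a median log2 fold change of -0.41. At an unadjusted p under 0.05, 3 were lower (Icam1, Selp at -3.03 and Tgm2 at -1.09) and 0 higher. The groups were separate for 4 that were lower (22.2%, against 19.8% of all genes tested) and 1 that was higher (5.56%, against 19.4%). The gene called was Icam1, an adhesion molecule of activated endothelium, with 876 and 542 normalised counts with eGFP and 22.4 and 38.1 with mVEGF-C. The exons of Icam1 overlap those of Gm47079 on the opposite strand, so the limit given for Bad holds here too. The groups were far apart, and Icam1 fell by 4.51 on the log2 scale (SE 1.28, limma adjusted p = 0.0255). It was not called by edgeR (adjusted p = 0.0579) or without the mean-variance trend (limma adjusted p = 0.0647), nor without eGFP 1 (0.449), eGFP 2 (0.657) or mVEGF-C 1 (0.0938).

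Level set what could be called. The change needed for a call ranged from 1.33 on the log2 scale for Birc6 to 4.30 for Tnfrsf23, since the fit gave genes of one level one shared spread and a gene's own replicate spread did not enter its p. The median normalised count of the 72 genes was 1171, against 828 over all genes tested, and 43 of the 72 lay above the middle of the table.

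**Figure D4:**
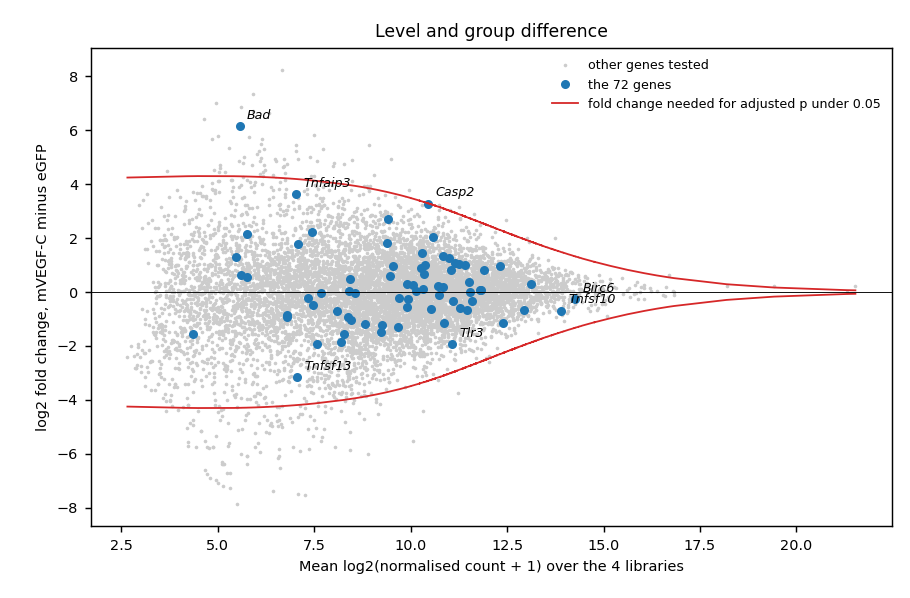
Mean log2(normalised count + 1) over the 4 libraries (x axis) against log2 fold change, mVEGF-C minus eGFP (y axis), for the 72 genes (blue) and the other genes tested (grey); the red lines mark the change needed for an adjusted p under 0.05 at each level. Bad lies outside the lines, Casp2 at the line, and Tnfaip3 inside it, at 3.64 where 4.195 was needed.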

How the data were processed

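RNA was sequenced from sorted cells after extraction with the Arcturus PicoPure kit and linear amplification, per the labels' protocols. FastQC, Trimmomatic, Salmon, DESeq2 and mm10 are named in the submitters' processing notes, without versions; whether counting used strand is not stated there. The authors deposited 1 table of 9114 genes whose values are a signal, normalised counts. In it 100% of values were whole multiples of 1 read in their library (within 0.001), so reads were recovered by division. Whether these were observed reads or rounded estimates cannot be told from the values. Libraries were compared with limma 3.58.1 in R 4.3.3 (lmFit, eBayes with trend) on log2(normalised count + 1), for 9063 genes (mean of 10 or more), two-sided, with Benjamini-Hochberg adjustment over all of them. The smallest exact permutation p of 2 against 2 libraries is 0.333, so no such test was run. edgeR 4.0.16 and DESeq2 1.42.0 on the recovered reads, other pseudocounts, filters, variance models and scalings, a replicate block, and each library left out were alternatives. The scripts were tested on simulated data. Coordinates and exon overlaps are from GENCODE, promoters from RefSeq. PCR duplicates cannot be told from molecules, so intervals on counts cover counting error only, not errors in assigning reads to genes.

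The 72 genes, role groups and other lists were chosen with earlier results of these data known. Values in every library are given for genes that were called or had an unadjusted p under 0.05, for core genes of each pathway, for the most abundant gene of each role, and for further genes picked after their values were seen: Bnip3, Casp4, Birc3, Tnfsf15, Tnfrsf13c, Traf6, Tab3, Rel and Nfkbil1.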

Additional observations from a re-analysis of the deposited data

How the results depend on the processing

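Across the 11 alternatives that kept all libraries, Bad was called higher in each, and no other of the 72 genes was called except as follows. Then 2 genes were called higher with a pseudocount of 0.5 and 2 with a minimum mean of 50 (Bad and Casp2); DESeq2 called 3 higher (Bad, Casp2 and Tnfaip3) and 1 lower (Tnfsf13). Leaving out 1 library gave 0 to 1 genes called higher and 0 lower, and moved the median log2 fold change of the 72 genes between -0.030 (without mVEGF-C 1) and 0.50 (without mVEGF-C 2). Over the table, 75 higher and 119 lower became 15 and 26 without the mean-variance trend, 289 and 329 with DESeq2, 79 lower with edgeR, and 5 to 104 higher and 0 to 188 lower with 1 library left out. Of the other pathway genes, 0 were lower without the trend, 1 was higher and 0 lower with edgeR, 2 higher and 2 lower with DESeq2, and 0 to 1 higher and 0 to 2 lower with 1 library left out.

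Signs turned for 6 of the 35 genes named by rule: Bcl2l1 was 0.10 with quantile normalization, 0.10 with edgeR and 0.069 with DESeq2; Chuk 0.30 with edgeR and 0.29 with DESeq2; Apaf1 -0.0034 and Ripk1 -0.048 with libraries rescaled to the same total; Nfkb1 -0.024 and Rela -0.012 with quantile normalization. With 1 library left out, signs turned for 15, none of them called. Their log2 fold changes ranged from -0.88 to 1.05 for Apaf1, -2.30 to 0.000052 for Bcl2, -0.74 to 0.65 for Bcl2l1, -0.53 to 0.025 for Birc6, -0.85 to 0.18 for Bnip3l, -0.61 to 1.17 for Cflar, -1.31 to 1.07 for Chuk, -0.53 to 0.93 for Irak1, -0.62 to 0.80 for Nfkb1, -1.13 to 1.32 for Rela, -1.23 to 1.30 for Ripk1, -1.02 to 0.99 for Tnfaip1, -0.40 to 1.16 for Tnfrsf10b, -3.12 to 0.55 for Tnfrsf1a and -1.55 to 0.17 for Tnfsf10. The causes were not tested.

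With the replicate number as a block, 1 gene was called higher and 0 lower, and 74 higher and 129 lower over the table. The deviations of same-numbered libraries had a correlation of 0.00013 over genes. With 2 libraries a group, that value cannot show whether same-numbered libraries shared a batch. The 2 pools a group, and the limit on replicate agreement that the table seems to carry, restrict what any of these fits can show.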
